A study of Mus musculus with 12 samples.

Results

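LIM domains are paired zinc fingers through which a protein binds other proteins, and the 9 genes described here code for LIM proteins of the actin cytoskeleton and the muscle Z-disc. They are the FHL (four-and-a-half LIM) genes Fhl1, Fhl2 and Fhl3, the cysteine-rich protein (CRP) genes Csrp1 and Csrp2, and the PDZ-LIM genes Pdlim1, Pdlim3, Pdlim5 and Pdlim7. They were taken by gene symbol from a count table of 57683 genes, and each symbol stood there once. All 9 passed the filter on low counts, as did 14734 genes in all.

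At 12 weeks of age, hearts were taken from females of FVB/NJ, an inbred mouse strain, and digested with collagenase. RNA of the cardiomyocytes (FVB-CM, 3 libraries) was taken straight after isolation. Nonmyocytes of these hearts (FVB-fibro, 3 libraries) were first grown in culture into mostly fibroblasts, through 2 passages by the protocol or as a P1 culture by the cell type label. Cell type and culture therefore cannot be told apart in any difference below, and in bulk RNA neither can fewer cells of a type and less RNA per cell.

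In striated muscle, FHL proteins sit on the giant spring protein titin and also enter the nucleus, where they modulate transcription factors. CRP proteins have a pair of LIM domains and bind alpha-actinin, the actin crosslinker of the Z-disc and of stress fibres, and the adhesion protein zyxin. PDZ-LIM proteins hold alpha-actinin through their PDZ domain and recruit kinases and other partners through their LIM domains.

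The promoters shown first are those of Fhl2 and Fhl1, because they held the CArG box, the site of serum response factor, and because Fhl2 had the largest difference of the 9 genes while Fhl1 moved the other way. They are RefSeq windows of 300 bases on build GRCm38.p6, from 250 bases before an annotated start to 50 after it, written 5′ to 3′ along the gene. Capitals mark the CArG box and, in the second Fhl2 window, also the MEF2 box. These windows lie at chr1:43163912-43164211 and chr1:43196712-43197011 (both minus strand, Fhl2) and at chrX:56779433-56779732 (plus strand, Fhl1).
Fhl2 first window: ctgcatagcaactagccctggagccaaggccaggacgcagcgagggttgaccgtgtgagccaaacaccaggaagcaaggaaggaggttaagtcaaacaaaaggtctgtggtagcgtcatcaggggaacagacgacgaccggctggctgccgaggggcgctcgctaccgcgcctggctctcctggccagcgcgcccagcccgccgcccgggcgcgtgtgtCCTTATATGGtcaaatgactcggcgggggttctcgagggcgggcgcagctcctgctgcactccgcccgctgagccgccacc
Fhl2 second window: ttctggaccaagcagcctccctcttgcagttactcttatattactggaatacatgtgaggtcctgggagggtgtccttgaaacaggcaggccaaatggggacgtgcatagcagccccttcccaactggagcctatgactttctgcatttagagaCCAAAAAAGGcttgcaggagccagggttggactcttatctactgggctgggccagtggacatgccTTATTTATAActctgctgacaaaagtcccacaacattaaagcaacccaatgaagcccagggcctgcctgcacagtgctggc
Fhl1 first window: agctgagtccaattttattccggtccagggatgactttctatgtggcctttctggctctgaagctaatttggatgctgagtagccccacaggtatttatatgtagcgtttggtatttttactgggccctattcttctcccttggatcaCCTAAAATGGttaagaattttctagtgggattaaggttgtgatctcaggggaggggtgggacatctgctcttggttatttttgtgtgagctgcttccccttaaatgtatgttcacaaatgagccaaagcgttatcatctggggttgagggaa
The CArG box began 31 and 96 bases before the start in the Fhl2 windows and 102 bases before it in the Fhl1 window. On either strand it was found in 3 of the 12 windows of these genes, against 1.63% of 32851 windows of the genome. Since 2 of these windows are of Fhl2, only 2 of the 8 genes with a window carried it, and they differed in opposite directions. Whether that exceeds the share of all genes was not tested. The MEF2 box was found in 1 of the 12 windows, the second of Fhl2, against 3.19% of all windows, where it overlaps a match to TATAAA. Pdlim3, which was also higher in cardiomyocytes, had neither box but held 2 matches to the MCAT motif CATTCC, carried by 14.7% of all windows. No CArG, MEF2 or MCAT match was found in the windows of Fhl3, Csrp1, Pdlim1, Pdlim5 or Pdlim7, and no window was at hand for Csrp2. The other motifs searched were CANNTG, in 8 of the 12 windows against 72.3% of all, and TATAAA, in 3 of the 12 against 13.6%. Counts are summed per gene, so they do not say from which start a transcript came. The counted model of Fhl2 has 1 transcript with 1 start, so at least 1 of its 2 windows lies at a start outside that model. Windows were matched to genes by symbol alone, on a different build from that of the counts.

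Polyadenylated RNA libraries held 5956831 to 26851830 counts in cardiomyocytes and 8126422 to 10792544 in nonmyocytes. Levels are CPM, counts divided by TMM-scaled library size, and log2 fold changes are cardiomyocyte minus nonmyocyte with a standard error. The label of the cardiomyocyte fraction was met by its markers, with all 8 tested markers (Myh6, Ryr2 and others) higher there at a summed level of 144740 to 187505 CPM, against 969 to 1300.1 CPM in nonmyocytes. All 8 fibroblast markers were lower, at 288 to 445 CPM in cardiomyocytes and 15362 to 16676 CPM in nonmyocytes. Of the 5 smooth muscle markers 4 were lower, while Smtn was higher, at a mean of 382 CPM in cardiomyocytes and 110 CPM in nonmyocytes. All 5 together summed to 749 to 781 CPM in cardiomyocytes and 6338 to 7926 CPM in nonmyocytes. Endothelial markers were higher in the cardiomyocyte fraction for 3 of 5 genes, with Pecam1 at or near 0 in both. Emcn leaned the other way without a call, at a mean of 14.1 CPM in cardiomyocytes and 23.7 CPM in nonmyocytes (edgeR adjusted p = 0.129). All 5 endothelial markers summed to 262 to 594 CPM in cardiomyocytes and 64.9 to 73.5 CPM in nonmyocytes. Pericyte markers were higher there for 4 of 4 genes (311 to 695 CPM in cardiomyocytes, 24.2 to 30.9 CPM in nonmyocytes). Most of that cardiomyocyte sum was Abcc9 alone, at 188, 372 and 452 CPM in libraries 1 to 3, and the Cspg4 libraries overlapped between fractions. Abcc9 stood in nonmyocytes at 0.623% of its cardiomyocyte level, close to the cardiomyocyte markers (0.637% to 0.762%). Kcnj8 stood at 0.800%, Rgs5 at 2.94% and Cspg4 at 57.1%. Whether Abcc9 marks pericytes or cardiomyocytes in this fraction was not tested. Of 5 macrophage markers 2 were lower (33.9 to 45.3 CPM in cardiomyocytes, 89.3 to 99.2 CPM in nonmyocytes). The 3 Schwann cell markers summed to no more than 3.64 CPM in any library. The part of these other cell types in the values below was not tested.

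The 9 genes divided between the fractions. Fhl2, Pdlim3 and Pdlim5 were higher in cardiomyocytes, Fhl1, Fhl3, Csrp1, Pdlim1 and Pdlim7 were lower, and Csrp2 was not called (edgeR quasi-likelihood, adjusted p under 0.05 over all genes tested). Among all genes tested, 63.7% were called, 31.6% as higher and 32.1% as lower, so a call by itself does not set these genes apart. Their median log2 fold change was -1.12, against -0.02 over all genes tested. For all 9 genes the libraries of the fractions did not overlap, as for 70.4% of all genes tested.

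Fhl2, whose protein binds titin and serves as a cofactor of transcription factors in the heart, held 1475, 2281 and 2371 CPM in cardiomyocyte libraries 1 to 3, against 124, 138 and 148 CPM in nonmyocyte libraries 1 to 3. The lowest cardiomyocyte library stood well above the highest nonmyocyte library, and library 1 was the low one among cardiomyocytes. Its log2 fold change was 3.90 ± 0.22 (edgeR adjusted p = 6.02e-09), or 15.0-fold. Cardiomyocyte library 1 was also the shallowest, and of the 3 it had the lowest sum in 6 of the 7 marker lists, cardiomyocyte, endothelial and pericyte markers among them and smooth muscle markers excepted.

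Fhl1, an X-linked gene whose protein joins the titin spring region to MAP kinase signalling and whose human mutations cause myopathies, went the other way. It held 202, 193 and 210 CPM in cardiomyocytes, against 374, 484 and 465 CPM in nonmyocytes. Every nonmyocyte library was above every cardiomyocyte library, which lay close together with a coefficient of variation of 4.21%. The log2 fold change was -1.12 ± 0.16 (edgeR adjusted p = 4.10e-05).

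Fhl3, known from mouse myoblasts as a partner of MyoD, was the scarcest of these FHL transcripts. It held 5.04, 8.49 and 7.27 CPM in cardiomyocytes and 38.6, 34.1 and 28.6 CPM in nonmyocytes. The fractions were far apart relative to the spread inside each (log2 fold change -2.25 ± 0.26, edgeR adjusted p = 6.16e-06). Its count is uncertain to a degree, since 11.9% of its 30-base transcript words (GENCODE M21) also occur in the processed pseudogene Gm13898.

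Csrp1, the CRP gene of smooth muscle and many other actin-rich cells, fell furthest of the 9. It held 19.8, 32.2 and 33.5 CPM in cardiomyocytes, against 442, 370 and 384 CPM in nonmyocytes. The highest cardiomyocyte library did not come near the lowest nonmyocyte library. The log2 fold change was -3.79 ± 0.22 (edgeR adjusted p = 7.20e-09), a level 13.8-fold lower in cardiomyocytes.

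Csrp2, a CRP gene known from vascular smooth muscle, was nearly level. It held 27.7, 29.4 and 31.3 CPM in cardiomyocytes and 38.4, 36.9 and 31.4 CPM in nonmyocytes. The lowest nonmyocyte library and the highest cardiomyocyte library were almost equal. The log2 fold change of -0.27 ± 0.19 was not called (edgeR adjusted p = 0.227), and its 95% interval ran from -0.67 to 0.14, so a fall or a rise beyond these bounds lies outside it. With libraries scaled by their totals alone, Csrp2 was called lower (-0.95, edgeR adjusted p = 0.000476). That scaling moves all genes together and puts their median at -0.70. The value relative to that median, -0.24, therefore nearly repeats the main one and is no separate check. Which scaling is nearer the truth was not tested.

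Among the PDZ-LIM genes with 1 LIM domain, Pdlim1 and Pdlim3 parted. Pdlim1, which codes for the adaptor CLP36 or Elfin, held 39.1, 68.8 and 57.5 CPM in cardiomyocytes, against 172, 155 and 179 CPM in nonmyocytes. The fractions did not overlap, and cardiomyocyte library 1 was the lowest (log2 fold change -1.60 ± 0.20, edgeR adjusted p = 1.46e-05). Of its 30-base words 11.5% also occur in the processed pseudogene Gm5864, so its count is uncertain to that degree.

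Pdlim3, the actinin-associated LIM protein gene of striated muscle, was the least abundant PDZ-LIM member in nonmyocytes. It held 22.7, 19.5 and 25.9 CPM in cardiomyocytes and 7.99, 7.73 and 12.5 CPM in nonmyocytes. Every cardiomyocyte library was above every nonmyocyte library, by a smaller margin than for Fhl2. The log2 fold change was 1.27 ± 0.27 (edgeR adjusted p = 0.00124). Scaling by library totals alone lowered it to 0.60 and ended the call (edgeR adjusted p = 0.0703).

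The Enigma-type genes, whose proteins carry a PDZ and 3 LIM domains, also parted. Pdlim5 (Enigma homolog, a scaffold for protein kinase C and alpha-actinin) held 280, 412 and 392 CPM in cardiomyocytes, against 142, 168 and 202 CPM in nonmyocytes. Cardiomyocyte library 1 was again the lowest of its fraction, yet above every nonmyocyte library. The log2 fold change was 1.08 ± 0.19 (edgeR adjusted p = 0.000276). Scaling by library totals alone lowered it to 0.40, close to the threshold (edgeR adjusted p = 0.0493). A lncRNA gene of the annotation, n286177, shares 116 bases, or 3.22%, of the Pdlim5 exons, and held at most 18 counts in any library.

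Pdlim7 (Enigma, known to bind beta-tropomyosin in skeletal muscle and the insulin receptor) held 110, 80.7 and 68.5 CPM in cardiomyocytes, against 331, 276 and 237 CPM in nonmyocytes. The groups did not overlap, and here cardiomyocyte library 1 was the highest of its fraction. The log2 fold change was -1.71 ± 0.20 (edgeR adjusted p = 8.84e-06).

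**Figure D1:**
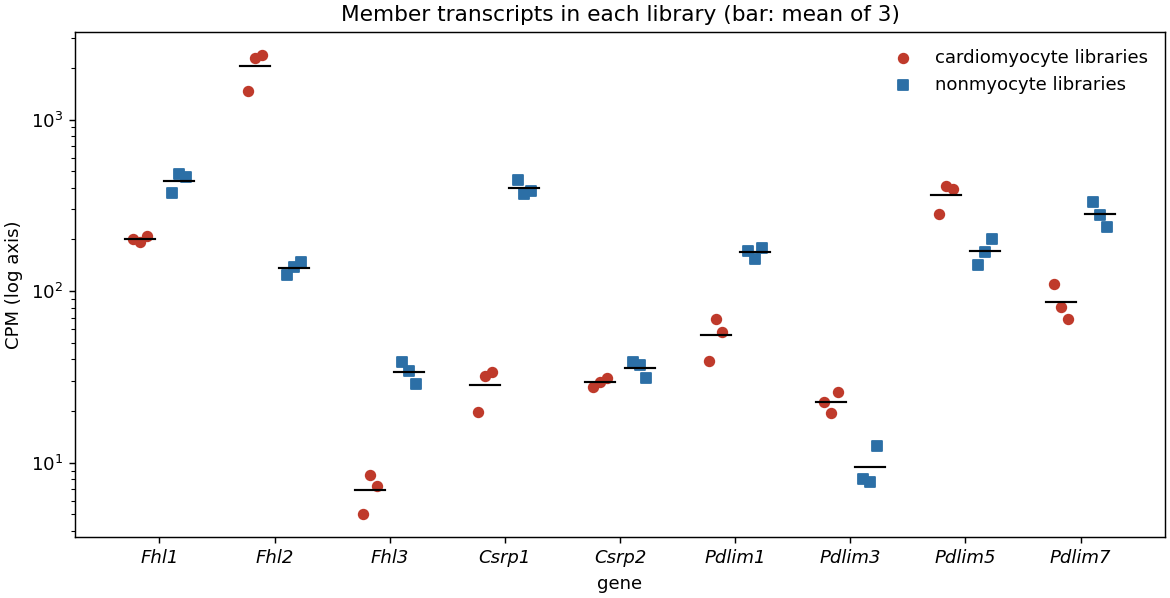
CPM on a log axis of each of the 9 genes in the 3 cardiomyocyte (circles, left) and 3 nonmyocyte (squares, right) libraries, with a bar at each mean. Fhl2 stands at 1475 to 2371 CPM in cardiomyocytes against 124 to 148 CPM in nonmyocytes, Csrp1 shows the opposite order, and the Csrp2 libraries nearly meet.

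Against a threshold of 2-fold, which 40.9% of all genes passed (edgeR test against a 2-fold change, adjusted p under 0.05), Fhl2 remained called as higher, and 4 members as lower, namely Csrp1, Fhl3, Pdlim1 and Pdlim7. Fhl1, Pdlim3 and Pdlim5 had log2 fold changes past 1 in size but missed that test (edgeR adjusted p = 0.175, 0.131 and 0.278).

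The levels in the lower fraction can be set beside those of the markers. The 8 cardiomyocyte markers stood in nonmyocytes at 0.637% to 0.762% of their cardiomyocyte level. Fhl2 stood there at 6.68%, Pdlim3 at 41.4% and Pdlim5 at 47.2%, all above that range. Csrp3, the muscle LIM protein gene and striated muscle relative of Csrp1, stood at 0.667%, inside it. In the other direction, the 8 fibroblast markers stood in cardiomyocytes at 0.933% to 7.86% of their nonmyocyte level. Csrp1 stood at 7.15%, above 7 of the 8 markers and below Col3a1 (7.86%), while Fhl3 (20.5%), Pdlim7 (30.8%), Pdlim1 (32.7%) and Fhl1 (45.9%) stood above all 8. Whether these low levels come from cells of other types in a fraction or from low expression was not tested. Nonmyocytes were measured only after culture, so these percentages of their level refer to cultured cells.

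To set genes beside each other, CPM was divided by the kilobases of annotated exon. In cardiomyocytes Fhl2 led at 1388 ± 336 CPM per kb (SD, n = 3), followed by Pdlim5 at 100.4 ± 19.8 and Fhl1 at 54.4 ± 2.29. Pdlim1 (39.5 ± 10.7) and Csrp2 (29.6 ± 1.79) overlapped between libraries, as did Pdlim7 (17.8 ± 4.45) with Pdlim3 (15.4 ± 2.20) and Pdlim3 with Csrp1 (14.6 ± 3.89). Fhl3 was lowest at 4.12 ± 1.04 CPM per kb. In nonmyocytes the order opened with Csrp1 at 204 ± 19.4 CPM per kb. Pdlim1 (120.7 ± 8.97) and Fhl1 (119 ± 15.9) could not be ordered beyond their spread, nor could Fhl1 and Fhl2 (92.8 ± 8.40) or Pdlim7 (58.0 ± 9.72) and Pdlim5 (47.4 ± 8.30). Csrp2 (35.8 ± 3.72), Fhl3 (20.1 ± 2.96) and Pdlim3 (6.39 ± 1.82) followed without overlap. The lead in each fraction thus belonged to a different gene.

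Each family was then taken whole, with the relatives Fhl4, Fhl5, Csrp3, Pdlim2, Pdlim4 and Ldb3 beside the 9 genes, and each gene's share of the family's summed CPM per kb was computed per library. In the FHL family Fhl2 made up 95.7 ± 1.10% in cardiomyocytes and 40.0 ± 1.60% in nonmyocytes, Fhl1 3.92 ± 1.06% and 50.9 ± 2.45%, and Fhl3 0.285 ± 0.0278% and 8.76 ± 2.06% (SD, n = 3 each). The family sum was 1447 ± 336 CPM per kb in cardiomyocytes and 232 ± 20.9 in nonmyocytes. Fhl4 and Fhl5, known mainly from testis, were close to 0 in both fractions. Fhl4 held 0 to 1.35 CPM in cardiomyocytes and 2.09 to 3.26 CPM in nonmyocytes (edgeR adjusted p = 0.0651), and Fhl5 had counts in 1 library alone, 7 in cardiomyocyte library 1.

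The CRP family changed its leading gene altogether. Csrp3, a relative outside the 9, made up 98.3 ± 0.205% of it in cardiomyocytes and 6.52 ± 0.751% in nonmyocytes. Csrp1 made up 0.570 ± 0.136% in cardiomyocytes and 79.5 ± 1.86% in nonmyocytes, and Csrp2 1.17 ± 0.112% and 14.0 ± 1.12% in that order. Although the CPM of Csrp2 hardly differed, its share of the family did, since Csrp3 rose by a log2 fold change of 7.23 ± 0.21 (edgeR adjusted p = 1.18e-10). The family sum was 2547 ± 229 CPM per kb in cardiomyocytes and 256 ± 22.2 in nonmyocytes.

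In the PDZ-LIM family Ldb3, the gene of the Z-disc protein Cypher or ZASP, made up 64.2 ± 3.71% in cardiomyocytes and 2.18 ± 0.126% in nonmyocytes. Its level is uncertain, since 45.2% of its exon bases lie in a lncRNA gene of the annotation that held no count in any library. Pdlim1 made up 7.75 ± 1.61% in cardiomyocytes and 44.3 ± 1.41% in nonmyocytes, and Pdlim7 3.57 ± 1.07% and 21.3 ± 3.56%. The libraries overlapped in the share of Pdlim5, 19.8 ± 3.09% in cardiomyocytes and 17.4 ± 3.0% in nonmyocytes (exact permutation p = 0.4). They also overlapped in that of Pdlim3, 3.09 ± 0.633% in cardiomyocytes and 2.34 ± 0.604% in nonmyocytes (exact permutation p = 0.2). The family sum differed least of the 3 families, at 505 ± 43.1 CPM per kb in cardiomyocytes and 272 ± 12.5 in nonmyocytes. Of the relatives, Pdlim2 fell by 5.45 ± 0.22 (log2, edgeR adjusted p = 3.41e-10), while Pdlim4 (3.60 ± 0.38, edgeR adjusted p = 2.76e-06) and Ldb3 (5.77 ± 0.19, edgeR adjusted p = 1.20e-10) rose. For the shares of Fhl1, Fhl2, Fhl3, Csrp1, Csrp2, Pdlim1 and Pdlim7, and for each family sum, the exact permutation test over libraries gave a two-sided p of 0.1, the smallest that 3 libraries against 3 allow.

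**Figure D2:**
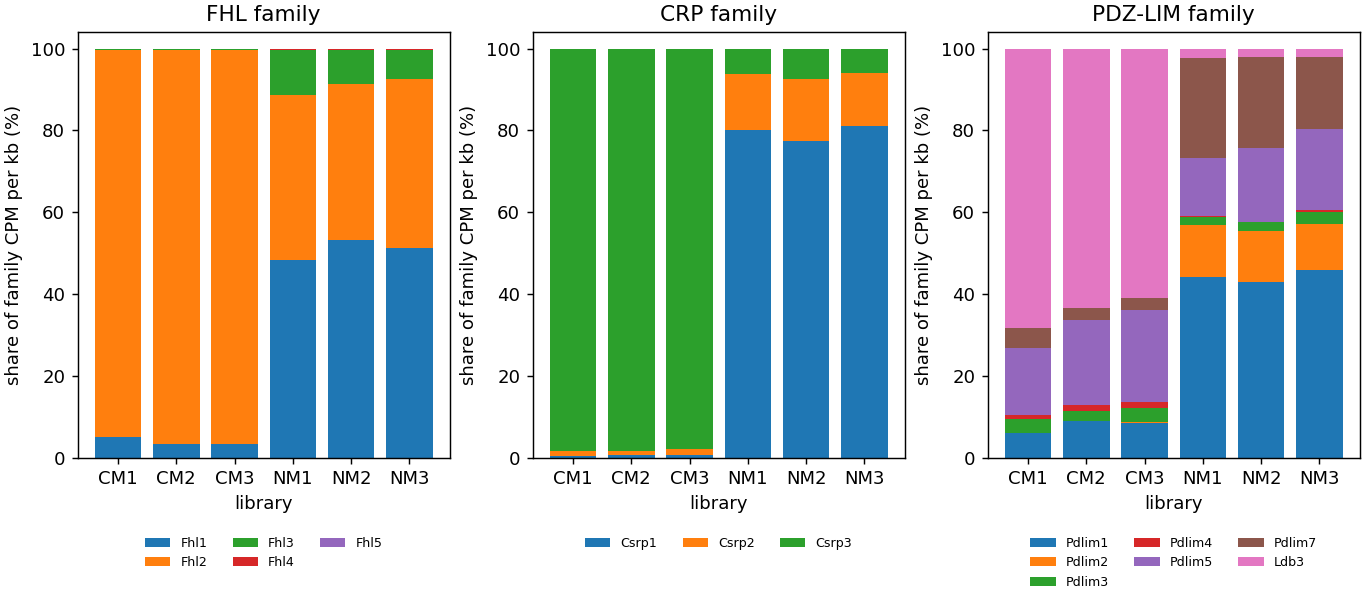
Share of each gene (percent of the summed CPM per kilobase of its family) in cardiomyocyte libraries CM1 to CM3 and nonmyocyte libraries NM1 to NM3, stacked per library. Fhl2, Csrp3 and Ldb3 fill most of the cardiomyocyte bars (95.7%, 98.3% and 64.2% on average), while Fhl1, Csrp1 and Pdlim1 are the largest blocks in nonmyocytes (50.9%, 79.5% and 44.3%).

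**Figure D3:**
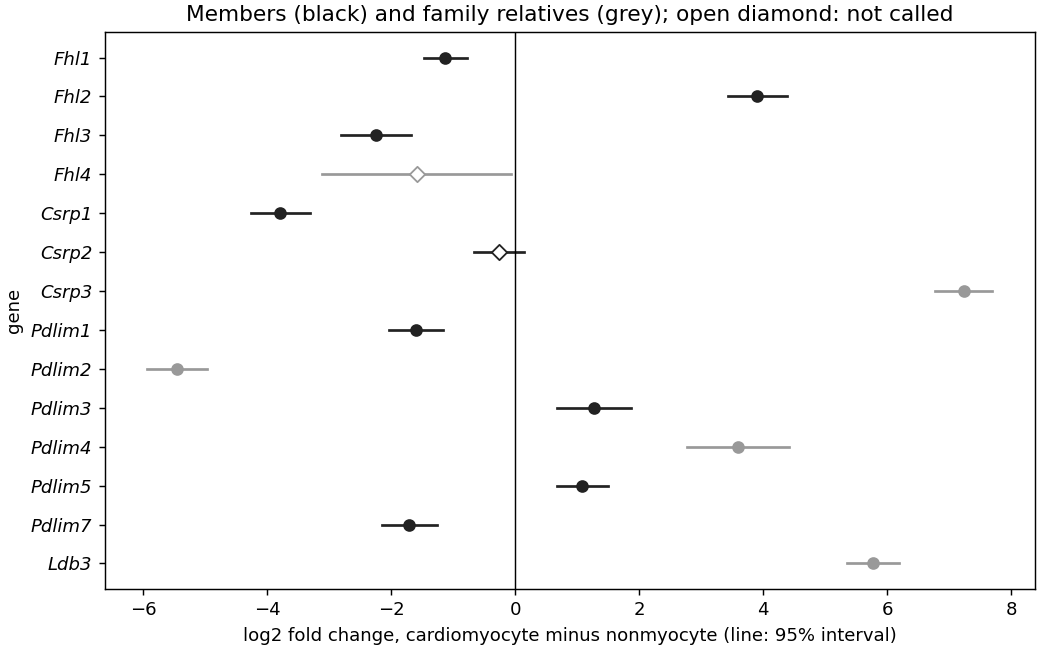
Log2 fold change, cardiomyocyte minus nonmyocyte, with its 95% interval for the 9 genes (black) and their tested relatives (grey), open diamonds marking genes not called. Fhl2 (3.90) is the only one of the 9 beyond 2 on the positive side, Csrp1 (-3.79) and Fhl3 (-2.25) lie beyond -2, and the relatives Csrp3, Ldb3 and Pdlim2 lie farther out than any of the 9.

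How far relatives could share reads was gauged from their coding sequences. Between pairs of a family, 65.2% to 71.6% of aligned coding bases were identical in the CRP genes, 54.9% to 71.8% in the FHL genes and 54.4% to 68.8% in the PDZ-LIM genes (GENCODE M21). The longest run identical between any pair of FHL coding sequences was the following, shown because no pair in the 3 families had a longer one.
Fhl1 and Fhl4 shared run: TTACCAGGATCAGCCCTGGCAT
It has 22 bases, against 15 for the longest run in the CRP family, between Csrp1 and Csrp2 or Csrp3, and 18 in the PDZ-LIM family. Fhl2 and Csrp2 shared no 30-base word with any other annotated transcript, and apart from the pseudogenes of Fhl3 and Pdlim1 no single gene held more than 0.772% of the words of one of the 9.

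In the deposited annotation (mm9) the genes are spread over 8 chromosomes, with Fhl2 (chr1:43179919-43220714) and Csrp1 (chr1:137616638-137648809), the extremes in fold, on the same one. Fhl1 (chrX:53984964-54046523) and Pdlim7 (chr13:55597156-55615037) have 12 transcripts each, with 11 and 8 annotated starts, whereas Fhl2, Csrp2, Pdlim1 and Pdlim3 have 1 transcript each. The largest gene is Pdlim5 (chr3:141904328-142058599), with 4 transcripts. Fhl3 (chr4:124377945-124385855), Csrp2 (chr10:110357235-110376678), Pdlim1 (chr19:40296734-40346004) and Pdlim3 (chr8:46970815-47004769) complete the set. Forms of a gene with and without LIM domains, known for Pdlim5 in muscle, are summed in these counts.

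The wider set of 29 cytoskeletal LIM genes was divided as well. Of 27 tested, 10 were higher and 14 lower in cardiomyocytes, beside 31.6% higher and 32.1% lower among all genes tested. The median log2 fold change was -0.83, against -0.02 for all genes tested. The largest rises were those of the Z-disc and junction genes Nrap (2026 ± 70.6 CPM in cardiomyocytes, 11.1 ± 1.90 CPM in nonmyocytes, log2 fold change 7.52), Lmo7 (626 ± 88.1 and 5.63 ± 1.04 CPM, 6.79) and the nebulette gene Nebl (167 ± 73.7 and 1.54 ± 0.531 CPM, 6.74). The largest falls were those of the focal adhesion genes Tgfb1i1 (16.6 ± 8.71 CPM in cardiomyocytes, 286 ± 17.2 CPM in nonmyocytes, -4.04) and Tes (1.86 ± 1.51 and 26.7 ± 0.436 CPM, -3.63), and of the actin-binding Lasp1 (37.9 ± 2.54 and 469 ± 23.5 CPM, -3.63). The highest adjusted p of these 6 genes was 1.18e-05, for Tes (edgeR quasi-likelihood). Nebl has 14 annotated transcripts, which are summed here, and which of them code for a LIM domain was not looked at. The folds of Fhl2 and Csrp1 were smaller in size than the extremes on their side of this set.

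**Figure D4:**
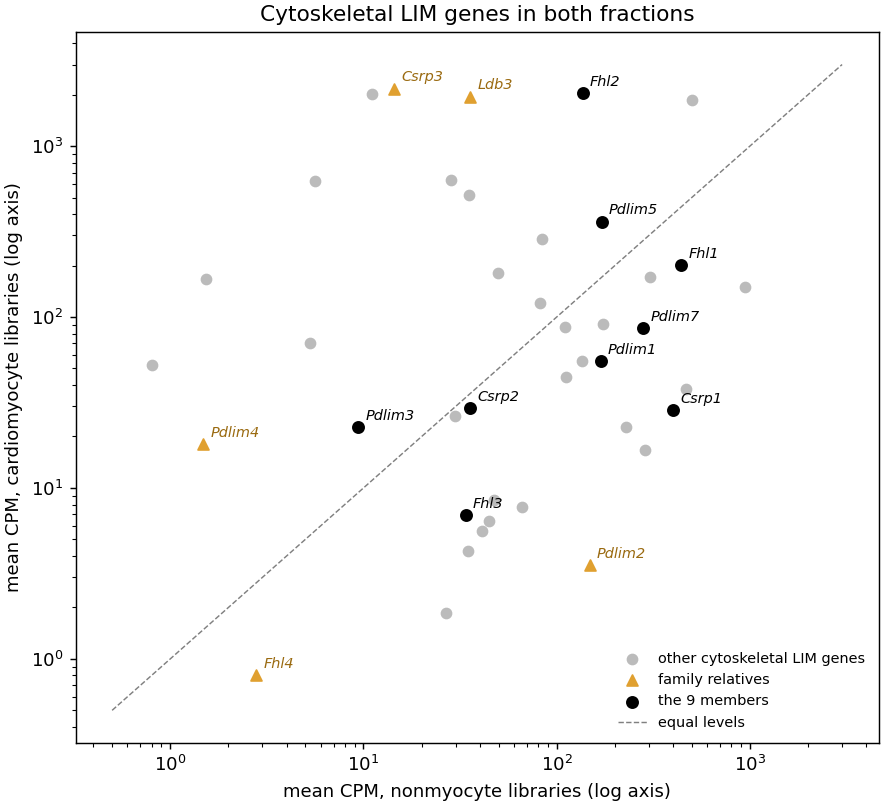
Mean CPM in cardiomyocytes (vertical) against nonmyocytes (horizontal), both on log axes, for the 9 genes (black), their tested relatives (triangles) and the tested genes of the wider LIM set (grey), with a dashed line of equal levels. Fhl2 (2042 CPM in cardiomyocytes, 136 CPM in nonmyocytes) lies near Csrp3 and Ldb3 in height but farther right, and Csrp2 lies next to the line.

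Reported partners and regulators of these proteins were looked at in the same fit. Of 20 tested in a list of 21, 9 were higher and 7 lower in cardiomyocytes, at a median log2 fold change of 0.12. Among all genes tested, 31.6% were higher and 32.1% lower, so these counts by themselves do not set the partners apart. The alpha-actinins, partners of CRP and PDZ-LIM proteins, split by gene. Actn2, the muscle form, held 5820 ± 537 CPM in cardiomyocytes and 38.9 ± 3.96 CPM in nonmyocytes (log2 fold change 7.22 ± 0.22, edgeR adjusted p = 1.18e-10). Actn1 (54.5 ± 5.08 CPM in cardiomyocytes, 1927 ± 308 CPM in nonmyocytes) and Actn4 (143 ± 26.5 and 996 ± 160 CPM), the nonmuscle forms, fell by 5.14 and 2.79 on the log2 scale (edgeR adjusted p = 2.88e-10 and 5.51e-08). Actn3, known from fast skeletal muscle, had 2 counts over the cardiomyocyte libraries and 119 over the nonmyocyte libraries, a ratio of 73.2 toward nonmyocytes (95% interval 19.8 to 612, which covers counting error only).

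Titin (Ttn), the anchor of Fhl1 and Fhl2, rose by a log2 fold change of 7.10 ± 0.28 (edgeR adjusted p = 2.50e-10), and the beta-tropomyosin gene Tpm2 fell by 5.37 ± 0.29 on the log2 scale (edgeR adjusted p = 4.44e-09). Named after their values were seen, the serum response factor gene Srf held 274 ± 32.7 CPM in cardiomyocytes and 113 ± 30.3 CPM in nonmyocytes, and its cofactor genes differed in direction. Myocd held 136 ± 28.8 CPM in cardiomyocytes and 2.23 ± 0.315 CPM in nonmyocytes, and Mkl1 19.7 ± 2.26 CPM in cardiomyocytes and 162 ± 32.5 CPM in nonmyocytes. Mkl2, the close relative of Mkl1, was higher in cardiomyocytes, at 83.0 ± 7.93 CPM against 58.8 ± 4.93 CPM in nonmyocytes (log2 fold change 0.50 ± 0.16, edgeR adjusted p = 0.0176). The other 3 were called with adjusted p of at most 8.70e-05 (edgeR quasi-likelihood).

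Coding genes with the pattern most like that of the leading member of each fraction were sought among 8079 genes at a mean of 10 CPM or more, as the smallest root mean square difference of centred log2 CPM over the 6 libraries. For Fhl2 these were Arhgap26 (0.0613), Ly6c1 (0.0991) and Pik3c2b (0.107). For Csrp1 they were Shisa5 (0.0911), Tagln2 (0.105) and Islr (0.115). The likeness covers the difference between fractions and between libraries of a fraction, not the level, since Arhgap26 held 65.6 ± 15.9 CPM in cardiomyocytes and 3.83 ± 0.684 CPM in nonmyocytes, far below Fhl2.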

How the data were processed

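The deposited table holds whole-number counts per gene, whose totals differ between libraries as raw counts do. The submitters' processing notes name Bowtie, TopHat 1.3.0, HTSeq, DESeq and edgeR without their roles, and builds mm9 and NCBIM37. The counting rule is not given in the sources used here, and the libraries do not keep the strand, per the labels' protocols. Genes were filtered with filterByExpr (minimum count 10), scaled by TMM and compared with edgeR 4.0.16 (robust quasi-likelihood test, R 4.3.3, two-sided, Benjamini-Hochberg over all genes tested, called under 0.05). The procedure was tested on simulated data, where many 2-fold changes were not called. Lengths, positions (mm9) and overlaps come from the deposited annotation, and promoter and transcript sequences from RefSeq and GENCODE M21 (GRCm38). Coding sequences were aligned with Biopython 1.88, and likeness used log2(CPM + 0.5). Since no label says which heart a library came from, the p-values cover the spread among libraries, part of which may be technical.

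Alternatives were other scalings, no filter, DESeq2 1.42.0, limma voom (limma 3.58.1), a 2-fold threshold, a replicate block, leaving out mitochondrial genes or each library, and other gene lengths, of which coding length was added after the data were seen. The members and lists were chosen with earlier results of these data known. All 9 members and 6 relatives are named, the 3 genes with the largest call each way of the LIM set, the alpha-actinins and the 2 largest each way of the partners, and the 3 most like genes. The small RNA libraries were not analysed here.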

Additional observations from a re-analysis of the deposited data

How the results depend on the processing

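Of 135 member values under the alternatives, 130 kept direction and call and none changed direction. All 54 with a library left out kept both (edgeR, highest adjusted p of a called member 0.00823, for Pdlim3). The 2-fold test reuses the main log2 fold changes, so direction could not change there. Csrp2 counts as kept wherever it stayed uncalled. Library totals gave 7106 genes lower in cardiomyocytes, called Csrp2 (-0.95) and ended the call of Pdlim3 (0.60), with Pdlim5 barely called (0.40, edgeR adjusted p = 0.0493). That scaling puts the median of all genes at -0.70 in place of -0.02, with 30.9% of called genes higher in place of 49.6%. The stricter 2-fold threshold left 3023 genes higher and 2996 lower, 1 member higher, and no call for Fhl1 (-1.12), Pdlim3 (1.27) or Pdlim5 (1.08). Family shares moved with the length used. With the longest transcript Fhl2 made up 94.5% in cardiomyocytes and Fhl1 58.1% and Pdlim1 37.3% in nonmyocytes. With coding length Fhl2 made up 92.8%, Csrp3 97.4% and Ldb3 69.6% in cardiomyocytes, and Fhl1 64.7%, Csrp1 88.9% and Pdlim1 29.3% in nonmyocytes, where Pdlim7 reached 27.5 ± 3.92% and could not be told from Pdlim1 by its spread. The cause of these shifts lies in the length divided by. Restricting the exons to Ensembl transcripts changed nothing, because these gene models hold no others. The labels share replicate numbers, and the deviations of same-numbered libraries correlated at 0.205, 0.0541 and 0.139 for numbers 1 to 3. Libraries 1 and 3 of each fraction correlated best with their own number. Cardiomyocyte library 2 correlated best with nonmyocyte library 3 (0.0730), and nonmyocyte library 2 with cardiomyocyte library 3 (0.0964). With 3 libraries per fraction, these values cannot decide whether libraries were paired. With the replicate block 4656 genes were higher and 4843 lower, and the same numbers of members, 3 and 5, were called.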
